A study of Mus musculus with 8 samples.

Results

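The genes described here encode the 10 proteins most often named as readers of N6-methyladenosine (m6A), which are Ythdf1, Ythdf2, Ythdf3, Ythdc1, Ythdc2, Igf2bp1, Igf2bp2, Igf2bp3, Hnrnpa2b1 and Hnrnpc. They were taken by gene symbol from the RNA-seq table, which holds 47643 named entries, and all 10 passed the filter on low counts, as did 15327 genes in all. The study examined loss of Mettl3, the catalytic subunit of the m6A writer, in mesenchymal stem cells (MSCs) from the bone marrow of C57BL/6 mice. RNA-seq compared 2 libraries from MSCs of Prx1-Cre;Mettl3fl/fl mice (cKO) with 2 from control littermates (WT), which the labels call wild type and the study calls Mettl3fl/fl. The Prx1-Cre transgene is active in limb bud mesenchyme and its descendants, so cells of other lineages in a marrow culture keep Mettl3. All cells had been held in osteogenic medium for 2 days, which contained dexamethasone at 100 nM, ascorbic acid at 50 μg/ml and β-glycerophosphate at 5 mM. The m6A map came from MeRIP-Seq, in which fragmented mRNA is precipitated with an antibody to m6A, and rested on 2 immunoprecipitates and 2 inputs of wild type MSCs, with none from cKO cells.

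Readers are the proteins through which m6A acts on an mRNA. YTHDF1, YTHDF2 and YTHDF3 are cytoplasmic and bind the methylated base in a pocket of their YTH domain, and they are known for effects on translation and decay of their targets. YTHDC1 is the nuclear member with this domain, known for roles in splicing and export, and YTHDC2 is a helicase best known from meiosis. IGF2BP1, IGF2BP2 and IGF2BP3 bind RNA through KH domains, stabilise target mRNAs and are mostly expressed in fetal tissue. HNRNPA2B1 and HNRNPC are abundant nuclear RNA-binding proteins that act on pre-mRNA, and HNRNPC is known for binding sites that m6A exposes by loosening a nearby RNA hairpin.

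Of the 10 reader mRNAs, 1 differed between the genotypes in the quasi-likelihood test of edgeR, with Benjamini-Hochberg adjusted p-values over all genes. Hnrnpa2b1 was 27.9% lower in cKO than in WT MSCs, and the other 9 did not pass an adjusted p of 0.05. Among all genes tested 30.5% passed, 13.7% higher and 16.8% lower in cKO, so the readers' 1 of 10 was no larger a share than the background. In the m6A map, 12 peaks lay on 6 of the 10 reader genes. All 4 peaks on Ythdf1 and Ythdf2 and the Ythdf3 peak of highest −log10 q lay within the single long exon that holds most of their coding sequence (CDS), and none of the 12 summits lay in a 3′UTR.

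The sequences at the peak summits are shown first because they carry the comparison among the YTHDF paralogs. Each run of 101 bases is centred on a summit and is written on the transcript strand from the mm9 genome, with each GGAC, the core of the m6A consensus, in capitals. The Ythdf1 window is chr2:180645621-180645721 and the Ythdf2 window chr4:131761221-131761321, both on the minus strand and in the CDS.
Ythdf1 second peak: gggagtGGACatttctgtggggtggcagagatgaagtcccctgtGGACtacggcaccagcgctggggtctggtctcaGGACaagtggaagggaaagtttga
Ythdf2 first peak: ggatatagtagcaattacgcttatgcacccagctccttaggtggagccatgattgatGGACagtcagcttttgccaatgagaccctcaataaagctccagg
In these windows the centre of the closest GGAC lay 4.5 and 8.5 bases from the summit. The Ythdf1 window held 3 GGAC within its 101 bases.

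The CDS peaks of Ythdc1 are shown for their base composition. Neither window of 101 bases holds a GGAC, and nor do those of the first Ythdf1 and second Ythdf2 peaks, which are not printed. Their positions on mm9 are chr5:87246059-87246159 and chr5:87264758-87264858, both on the plus strand.
Ythdc1 second peak: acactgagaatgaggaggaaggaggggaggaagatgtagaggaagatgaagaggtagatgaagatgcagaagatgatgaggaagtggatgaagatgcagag
Ythdc1 last peak: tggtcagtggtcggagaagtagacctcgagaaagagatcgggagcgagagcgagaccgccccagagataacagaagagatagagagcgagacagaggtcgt
A and G made up 83.2% of the first and 71.3% of the second of these windows, against a median of 54.5% over the windows of all peaks in genes. Of the CDS peaks in the list, 99.3% and 95.9% had a lower share of A and G than these. Over all 9397 peaks with a summit in a gene, GGAC occurred on the transcript strand within 100 bases of the summit in 80.1% and GGACT, which contains GGAC, in 38.3%. In that wider window both Ythdc1 CDS peaks had 1 GGAC, as had the second Ythdf2 peak, and the first Ythdf1 peak had none. The variants AGACT and GAACT, not in capitals here, occurred within 100 bases of the summit in 31.3% and 27.3% of peaks in genes. Over the whole width of peaks in genes these shares were 44.4% and 39.5%. Over its whole width, the first Ythdf1, the second Ythdf2 and the second Ythdc1 peak each held an AGACT. The last Ythdc1 peak held neither variant.

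Depth in the RNA-seq libraries ranged from 23978099 to 34106693 estimated counts, and values below are CPM, counts per 1000000 scaled by trimmed mean of M-values (TMM), unless stated. The labels do not say that the 2 libraries of a genotype came from separate animals, so p-values may measure technical spread only. The cKO libraries lay closer to each other than the WT libraries did, with a chi-square per degree of freedom of 1.82 over 14742 genes against 32.6 over 15223 genes. Mettl3, the targeted gene, had 17.6 and 16.9 CPM in WT and 17.5 and 16.3 CPM in cKO, and its log2 fold change of −0.03 had an adjusted p of 0.824. The deletion removes only some exons, so a count over the whole gene does not check it, and genotypes are given as labelled. The study itself reported the loss of Mettl3 from immunostaining of femurs and a western blot, and a lower m6A level in MSCs. Of 11 stromal markers 9 differed between genotypes, 4 higher and 5 lower in cKO, with log2 fold changes from −2.35 (Nt5e) to 4.59 (Thy1). All stromal markers but Lepr, with 19 to 37 counts per library, were above 1 CPM in every library. Endothelial markers summed to 3.64 and 3.22 CPM in WT and 17.1 and 14.5 CPM in cKO, of which Kdr and Emcn were most, while the defining markers Pecam1 and Cdh5 were under 0.5 CPM in every library. Adipocyte markers summed to 126 and 142 CPM in WT and 217 and 221 CPM in cKO, with 4 higher and Cidec lower, while erythroid and neutrophil markers summed to under 5 CPM in each library. All 7 macrophage markers were above 1 CPM in every library and summed to 14200 and 19200 CPM in WT and 19000 and 19100 CPM in cKO. Most of this was Lyz2, at 11000 and 15900 CPM in WT and 15600 and 15700 CPM in cKO. Of the 7 only Ptprc was called, rising from a mean of 195 to 262 CPM (edgeR adjusted p 0.00333). Values below are thus of cultures that included macrophage RNA. Chondrocyte markers summed to 3570 and 3610 CPM in WT and 85.1 and 84.4 CPM in cKO, and all 8 proliferation genes were lower, summing to 517 and 520 CPM in WT and 325 and 324 CPM in cKO. In such bulk samples fewer cells of a type and less RNA per cell cannot be told apart.

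**Figure D1:**
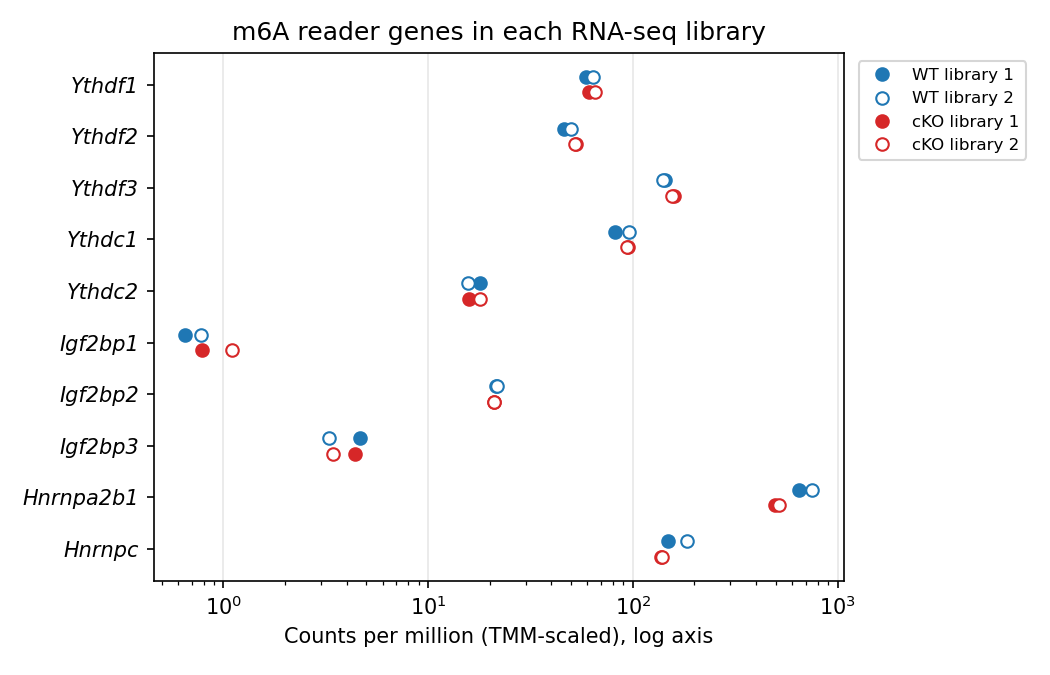
Each point is the CPM of a reader gene in 1 RNA-seq library, on a log axis, with WT in blue and cKO in red, library 1 filled and library 2 open. Hnrnpa2b1 lies highest, with both cKO points left of both WT points, and Igf2bp1 lies lowest, near 1 CPM.

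Levels of the readers were compared as TPM, transcripts per 1000000, which take account of length. In WT the order was Hnrnpa2b1 at a mean of 704 TPM, Hnrnpc at 82.6, Ythdf3 at 45.1, Ythdc1 at 37.7, Ythdf1 at 27.7, Ythdf2 at 21.7, Igf2bp2 at 9.25, Ythdc2 at 3.51, Igf2bp3 at 1.56 and Igf2bp1 at 0.125 TPM. The order was the same in cKO, from 546 TPM for Hnrnpa2b1 to 0.600 TPM for Igf2bp1, and within each genotype no gene's libraries overlapped those of its neighbour in the order. The place of Ythdc1 depended on the length used. Divided by the summed exon length, its WT mean was 6.50 CPM per kb, below Ythdf1 at 18.5 and Ythdf2 at 10.5 CPM per kb. Hnrnpa2b1 ranked 231 by mean TPM among the 15327 genes tested, and Igf2bp1 ranked 14388.

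Among the cytoplasmic YTH proteins, Ythdf1 (ENSMUSG00000038848, chr2:180904377-180920949 on mm10) promotes translation of its targets in many settings. It had 58.9 and 63.6 CPM in WT and 61.0 and 65.3 CPM in cKO. The genotypes overlapped, and the log2 fold change was 0.05 (SE 0.0725, 95% interval −0.13 to 0.22, adjusted p 0.672).

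Ythdf2 (ENSMUSG00000040025, chr4:132184912-132212303) is the member best known for directing methylated mRNAs to decay. It had 46.1 and 50.1 CPM in WT and 52.9 and 52.3 CPM in cKO. Both cKO libraries were above both WT libraries, but the log2 fold change of 0.13 did not pass the test (SE 0.0708, 95% interval −0.04 to 0.30, adjusted p 0.220).

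Ythdf3 (ENSMUSG00000047213, chr3:16183212-16217037), which works with both other YTHDF proteins, had 143 and 141 CPM in WT and 159 and 155 CPM in cKO. Again both cKO libraries were higher. The log2 fold change was 0.14 (SE 0.0569, 95% interval 0.01 to 0.28), and the adjusted p was 0.105. The 3 YTHDF intervals together reached no further than −0.13 and 0.30, so a 2-fold change of any of these mRNAs lay outside its interval.

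Of the other YTH proteins, nuclear Ythdc1 (ENSMUSG00000035851, chr5:86804221-86836659) had 82.0 and 95.4 CPM in WT and 95.2 and 94.1 CPM in cKO. WT library 2 lay above both cKO libraries and WT library 1 below them, and the log2 fold change was 0.09 (SE 0.0834, 95% interval −0.11 to 0.30, adjusted p 0.438). Its deposited counts were fractional in 3 libraries, for which the cause was not tested.

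The helicase gene Ythdc2 (ENSMUSG00000034653, on chromosome 18) had 17.9 and 15.7 CPM in WT and 15.8 and 17.9 CPM in cKO. The genotypes covered the same range, with a log2 fold change of 0.01 (SE 0.114, 95% interval −0.26 to 0.28, adjusted p 0.962).

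Within the IGF2BP family 1 gene predominated. Igf2bp2 (ENSMUSG00000033581, chr16:22059009-22163299), the family member that stays on in adult tissues, had 21.5 and 21.6 CPM in WT and 21.1 and 20.9 CPM in cKO. The WT libraries were above the cKO libraries by less than 1 CPM, and the log2 fold change was −0.04 (SE 0.0814, 95% interval −0.23 to 0.16, adjusted p 0.765).

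Igf2bp3 (ENSMUSG00000029814, chr6:49085223-49214957), an oncofetal family member, had 4.64 and 3.29 CPM in WT and 4.41 and 3.45 CPM in cKO. The 2 libraries of a genotype differed more than the genotypes, and the log2 fold change was −0.03 (SE 0.237, 95% interval −0.60 to 0.55, adjusted p 0.948). Its 3′ end shares 1529 bases with Malsu1 on the opposite strand, and whether counting used strand is not stated, so its level is uncertain.

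Igf2bp1 (ENSMUSG00000013415, chr11:95957163-96005940), the fetal family member that binds Actb mRNA, was near the limit of detection, with 22 counts in each WT library and 19 and 35 counts in the cKO libraries. These were 0.650 and 0.778 CPM in WT and 0.784 and 1.10 CPM in cKO. The log2 fold change was 0.41 with a wide interval (SE 0.360, 95% interval −0.45 to 1.28, adjusted p 0.430). Deposited TPM for the same gene were 0.130 and 0.120 in WT and 0.490 and 0.710 in cKO, a ratio of means of 4.80, against 1.33 from the counts. The cause of this difference between the deposited units was not tested, and from the counts no difference between genotypes was detectable at this depth. At a mean of 0.362 TPM over all libraries, Igf2bp1 was below the level kept for the models on TPM, so its TPM were not tested.

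Among the hnRNP readers, Hnrnpa2b1 (ENSMUSG00000004980, chr6:51460932-51469894), a splicing and RNA transport factor also linked to processing of primary microRNAs, had 652 and 754 CPM in WT and 497 and 517 CPM in cKO. Both cKO libraries were lower than both WT libraries. The log2 fold change was −0.47 (SE 0.0818, 95% interval −0.67 to −0.27) and the adjusted p 0.00763, and the change kept its sign without any 1 library. Without cKO library 1 the adjusted p was 0.10, and without cKO library 2 it was 0.0649. On the TPM scale the means were 704 and 546.

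Hnrnpc (ENSMUSG00000060373, chr14:52073380-52104028), a pre-mRNA packaging protein, had 149 and 183 CPM in WT and 137 and 139 CPM in cKO. The cKO libraries lay below both WT libraries, but the WT libraries differed from each other by more than the distance from the lower of them to cKO. The log2 fold change was −0.26 (SE 0.0995, 95% interval −0.50 to −0.02) and the adjusted p 0.0956. Its deposited counts were fractional too.

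Across the family, 6 of the 10 genes had WT and cKO libraries that did not overlap, against 68.9% of all genes tested. By the edgeR estimate from counts no reader reached a 2-fold difference, while 11.4% of all genes did. Igf2bp1 had a ratio of 4.80 in TPM, and its 95% interval from counts reached a log2 fold change of 1.28. The median log2 fold change was 0.028 over the readers and −0.004 over all genes. The number of readers called rested on single libraries, and so did the number of all genes called. Without WT library 2 the log2 fold changes of Ythdf2, Ythdf3 and Ythdc1 were 0.18, 0.13 and 0.20. Without WT library 1 they were 0.08, 0.16 and −0.0054. Hnrnpc was lower in both cases, at −0.11 and −0.39. These genes were named after their values were seen.

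**Figure D2:**
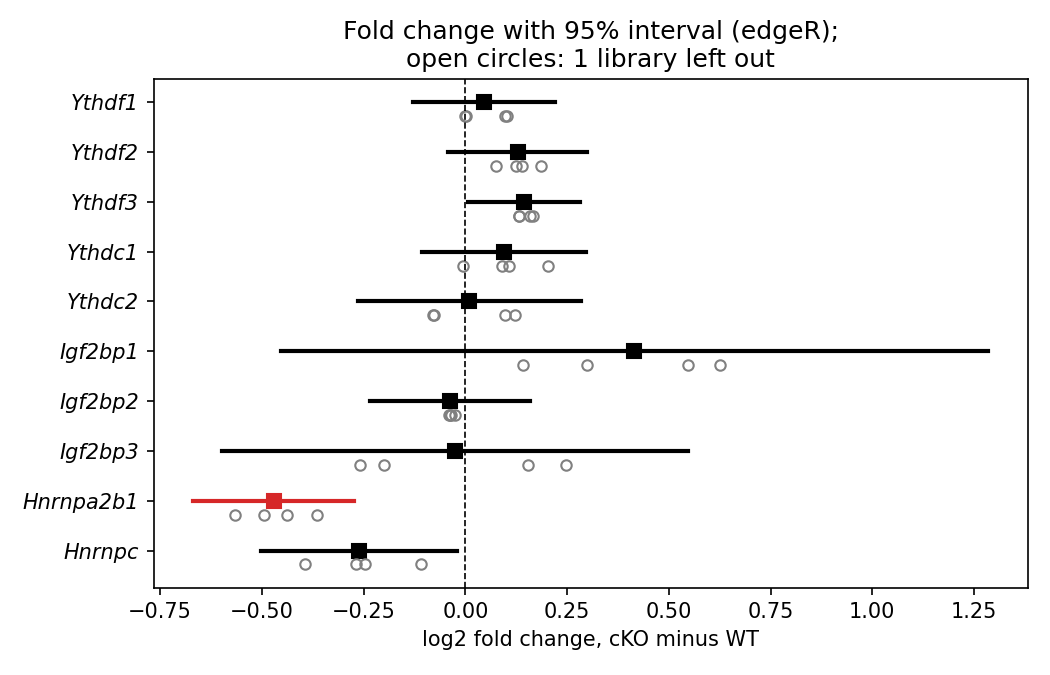
Squares give the log2 fold change (cKO minus WT) of each reader gene with its 95% interval as a bar, red where the adjusted p was under 0.05, and open circles the value with 1 library left out. Hnrnpa2b1 is the gene in red, with every open circle below 0, and Igf2bp1 and Igf2bp3 have the widest intervals.

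The genes that make, erase or work beside the readers were examined in 7 lists. Of their 96 genes 92 were tested, and 6 were higher and 12 lower in cKO, compared with 13.7% and 16.8% of all genes. Of 22 other hnRNP genes none was higher and 3 were lower, with a median log2 fold change of −0.072. Values below are mean CPM ± SD (n = 2 per genotype) with the edgeR adjusted p.

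Hnrnpa1, a splicing repressor of the same A/B family as Hnrnpa2b1, fell from 168 ± 4.12 to 137 ± 0.0580 CPM (adjusted p 0.0115). Hnrnpl fell from 229 ± 0.0747 to 188 ± 5.51 CPM (adjusted p 0.0141), and Hnrnpab from 384 ± 15.5 to 323 ± 12.4 CPM (adjusted p 0.0287). The 2 other hnRNP genes of highest mean TPM did not pass, with log2 fold changes of 0.02 for Hnrnpf and −0.05 for Hnrnpk. Of 7 nuclear partners of YTHDC1, the splicing factor genes Srsf3 and Srsf7 were lower and none was higher. Srsf3 fell from 149 ± 0.627 to 121 ± 0.568 CPM (adjusted p 0.00882) and Srsf7 from 41.0 ± 0.463 to 31.4 ± 0.294 CPM (adjusted p 0.00917), while the export receptor Nxf1 had a log2 fold change of −0.01. The 8 proliferation genes were lower in the same libraries, and their part in these differences was not tested.

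Of 18 genes tested for the decay machinery that YTHDF2 and YTHDC2 recruit, 2 were higher and none lower. The 5′-3′ exonuclease gene Xrn1 rose from 51.0 ± 7.57 to 67.8 ± 1.71 CPM (adjusted p 0.0289), and the decapping enzyme gene Dcp2 from 46.0 ± 3.56 to 55.9 ± 0.155 CPM (adjusted p 0.0353). Of the deadenylase subunit genes, Cnot8 and Cnot2 had log2 fold changes of −0.00 and 0.05 and were not called. Translation factors linked to YTHDF1 and YTHDF3 showed 0 higher and 2 lower of 15. The initiation factor subunit genes Eif3i and Eif3d had log2 fold changes of −0.33 (adjusted p 0.00863) and −0.19 (adjusted p 0.0461), and the ribosomal scaffold Rack1 and the poly(A)-binding protein gene Pabpc1 did not pass, at −0.16 and 0.02.

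Among other proteins reported to bind m6A RNA, 1 of 12 was called. Snd1, a nuclease-domain coactivator, fell from 163 ± 7.16 to 132 ± 2.93 CPM (adjusted p 0.0131), and Caprin1 and Prrc2a had log2 fold changes of −0.02 and 0.12. Of 11 writers and erasers, 3 were higher and none lower, all of them methyltransferase complex genes. Rbm15b rose from 43.8 ± 2.79 to 58.5 ± 0.930 CPM, Cbll1 from 14.7 ± 1.06 to 18.8 ± 0.334 CPM and Zc3h13 from 60.2 ± 2.80 to 75.2 ± 0.287 CPM (adjusted p 0.00767, 0.0359 and 0.0133). The demethylase gene Alkbh5 and the complex gene Wtap were not called, at 0.21 and 0.08.

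The largest differences were in the fetal growth genes linked to the IGF2BP family, where 1 was higher and 4 lower of 7 tested. H19, an imprinted noncoding RNA, fell from 59.0 ± 10.5 to 4.69 ± 0.104 CPM (adjusted p 2.81e-05), and the imprinted zinc finger gene Plagl1 from 62.9 ± 6.65 to 5.77 ± 0.173 CPM (adjusted p 1.14e-05). Igf2, after whose mRNA the IGF2BP proteins are named, rose from 5.64 ± 0.575 to 18.1 ± 1.85 CPM (adjusted p 0.000338). The chromatin protein gene Hmga1 fell from 139 ± 10.2 to 113 ± 2.35 CPM (adjusted p 0.0218). Chondrocyte markers fell in the same libraries, and their part in these differences was not tested.

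**Figure D3:**
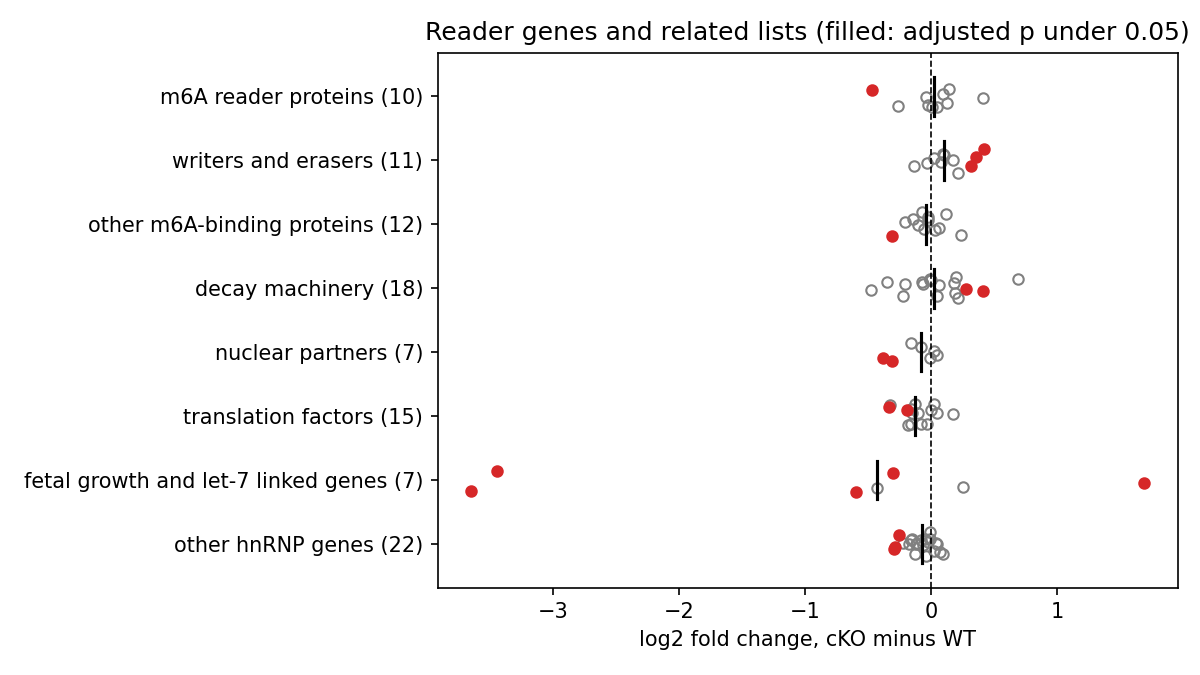
Each point is the log2 fold change (cKO minus WT) of 1 gene in the reader list or a related list, with the number of genes tested in brackets, filled where the adjusted p was under 0.05, and a vertical bar at each list's median. Apart from 3 fetal growth genes beyond 1.5 in size, the points lie between −0.60 and 0.70.

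The peak list of the wild type cells held 10160 peaks. Of the 14118 tested genes found in the mm9 gene models, 40.3% had at least 1 peak summit, compared with 6 of the 10 readers. This share varies with level. At a WT mean of 20 to 100 TPM, 47.1% of genes had a peak, and all 5 readers at that level did (Ythdf1, Ythdf2, Ythdf3, Ythdc1 and Hnrnpc). Under 5 TPM the share was 24.9%, and none of Ythdc2, Igf2bp1 and Igf2bp3 had a peak. Hnrnpa2b1 had none either, at a level over 100 TPM where 37.1% of genes had one. MeRIP depth is not given in the sources used here, so an unlisted peak does not show an unmethylated mRNA. Among the 10 readers the 1 gene called thus had no listed peak. The 6 with a peak were not called, and nor were Ythdc2, Igf2bp1 and Igf2bp3 without one, where 30.5% of all genes were called. A single call cannot relate peaks to differences in level.

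The readers' 12 peaks comprised 7 with the summit in the CDS, 3 in the 5′UTR and 2 in an intron. Over the whole list 56.4% of summits lay in a CDS, 5.15% in a 5′UTR, 5.24% in an intron and 23.8% in a 3′UTR. Their median pileup was 71.0 fragments against 60 over the list, and their median −log10 q 13.7 against 14.2. Their median fold enrichment was lower, at 3.18 against 4.03. A GGAC lay within 8 of the 12 peaks, compared with 86.9% of all peaks in genes.

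**Figure D4:**
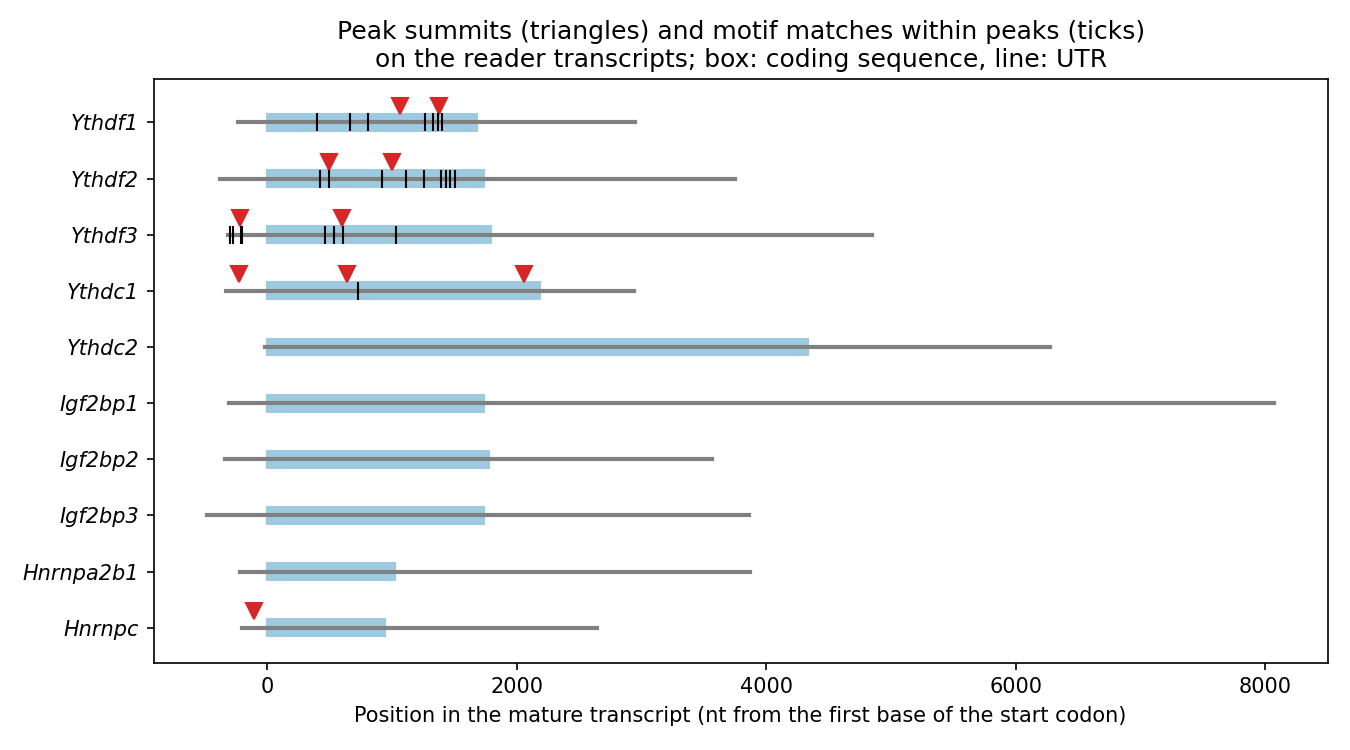
Mature transcripts of the 10 readers are drawn to scale in nt from the start codon, with the CDS as a box, UTRs as lines, peak summits as triangles and GGAC matches within peaks as ticks. Triangles fall on the CDS or near the 5′ end, and none falls in a 3′UTR. The 2 summits in introns are not drawn.

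The YTHDF genes carried 7 of the 12 peaks. Ythdf1 had 2, at chr2:180645910-180646746 and chr2:180645574-180645812 on mm9, with summits 1061 and 1373 nt past the start codon. Together they covered 64.0% of the CDS. The second had a pileup of 95, a fold enrichment of 3.02 and a −log10 q of 16.7, and the first 77, 2.41 and 8.59. The closest GGAC to the first summit was 253.5 bases away, so its summit window held none.

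Ythdf2 also had 2, at chr4:131761191-131761419 and chr4:131760191-131760971, with summits 491 and 998 nt past the start codon and 58.0% of the CDS covered. Pileups were 67 and 111, fold enrichments 3.34 and 2.61 and −log10 q 13.7 and 15.2. The second peak held 7 GGAC, the most of any reader peak.

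Ythdf3 had 3 peaks, and its CDS peak at chr3:16104098-16104791 had the highest pileup, 116, and the highest −log10 q, 41.9 (rank 286 in the list), of the reader peaks. Its fold enrichment of 5.31 was below those of the 5′UTR peaks on Ythdf3 and Hnrnpc. Its summit lay 599 nt past the start codon. Another peak lay at the 5′ end, and the last, at chr3:16113781-16114009, had its summit in the last intron, 3 bases before exon 6. This last peak had 55 of its 229 bases in that exon and held no GGAC. Of the 55 bases 24 were CDS, up to its last base, so the peak covered the stop codon and ran into the 3′UTR. The exons that hold the CDS summits are 1521 bases long in Ythdf1 (exon 4), 1584 in Ythdf2 (exon 4) and 1599 in Ythdf3 (exon 5).

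The YTHDF coding sequences are paralogs, identical at 69.4% to 70.9% of aligned bases, so peak positions could be placed on one another. The first Ythdf2 summit and the Ythdf3 CDS summit lay 69 nt apart in the alignment. The second Ythdf2 summit lay 126 nt from the first Ythdf1 summit. The second Ythdf1 summit was 438 nt or more from any summit of its paralogs. Summits of neighbouring peaks in the paralogs thus did not fall on one base, and the peaks were 229 to 837 bases wide.

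The GGAC letters themselves were shared in part. Of 13 GGAC in the Ythdf1 CDS, 5 were aligned with a GGAC in Ythdf2 and 2 with one in Ythdf3, and 5 of the 12 in Ythdf2 were aligned with one in Ythdf3. The GGAC closest to the second Ythdf1 summit is one of those shared with Ythdf2, which has it 63 nt further along its own CDS and also within a peak. The aligned 30 bases, GGAC in capitals, are at chr2:180645661-180645690, chr4:131760316-131760345 and chr3:16105126-16105155.
Ythdf1: tgaagtcccctgtGGACtacggcaccagcg
Ythdf2: tgaaatctgctgtGGACtacaacacatgtg
Ythdf3: tgaagtctgttgtagactataatgcttatg
The Ythdf3 line has the letters agac at the place of GGAC, and with the next base they form the variant AGACT. No Ythdf3 peak covers this place. The GGAC closest to the first Ythdf2 summit was shared with Ythdf3 instead, where it lies inside the Ythdf3 CDS peak. These 30 bases are at chr2:180646536-180646565, chr4:131761248-131761277 and chr3:16104182-16104211.
Ythdf1: cacagttgttgatgggcagacaggttttca
Ythdf2: agccatgattgatGGACagtcagcttttgc
Ythdf3: agctattactgatGGACaggccggatttgg
Here Ythdf1 has gggc in place of GGAC, and the first Ythdf1 peak covers that place too. The GGAC closest to the first Ythdf1 summit, the one closest to the second Ythdf2 summit and the one closest to the Ythdf3 CDS summit were aligned with a GGAC in neither paralog. A match to these letters is a description of the sequence and does not show that the base is methylated.

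Ythdc1 had 3 peaks. Its CDS peaks, at chr5:87245928-87246231 and chr5:87264634-87264871, had pileups of 115 and 75 but fold enrichments of only 2.18 and 2.23, at or under those of 94.8% and 94.0% of the list. Their −log10 q were 10.4 and 6.90. The first held 1 GGAC, 90.5 bases from the summit, and the other none. They lie in the purine-rich windows printed above, 636 and 2061 nt past the start codon. The second is in exon 17, the last, with its summit at −123 nt relative to the stop codon.

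The 3 summits in a 5′UTR, on Ythdf3, Ythdc1 and Hnrnpc, were alike in position, at 99, 108 and 93 nt from the annotated transcript start in exon 1. All 3 peaks reached past that start, by 55, 23 and 88 bases. The antibody also binds m6Am, the methylated base beside the mRNA cap, and the list does not tell them apart. The summits lie in chr3:16083266-16083295, chr5:87233350-87233379 and chr14:52723596-52723625, the last on the minus strand.
Ythdf3 5′UTR: tgtgggcccgaggatcggaGGACgagcggg
Ythdc1 5′UTR: accccaacaggaaggctgaagcccgcgccg
Hnrnpc 5′UTR: ccggcgtctcggcgtagactcgcagtagga
Only the Ythdf3 run holds a GGAC, and the Hnrnpc run holds the variant AGACT. The Ythdf3 peak, at chr3:16083128-16083357, had a pileup of 55, a fold enrichment of 5.71 and a −log10 q of 21.9. The Ythdc1 peak, at chr5:87233223-87233432, had 60, 3.60 and 13.7. The Hnrnpc peak, at chr14:52723588-52723791, had only 14 fragments at a fold enrichment of 7.14 and a −log10 q of 8.79, and the 1 GGAC in it lay outside the annotated gene.

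Igf2bp2 carried 1 weak peak, at chr16:22113062-22113275, in an intron 24054 bases from the closest exon of the transcript used. Its pileup was 19 and its −log10 q 1.99, rank 10118 of 10160, and it held no GGAC. It was lost when peaks were required to have a −log10 q of 5 or to overlap an exon, which left 11 peaks on 5 readers. At a −log10 q of 10, 8 peaks on 4 readers were left, and Hnrnpc was lost too.

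**Figure D5:**
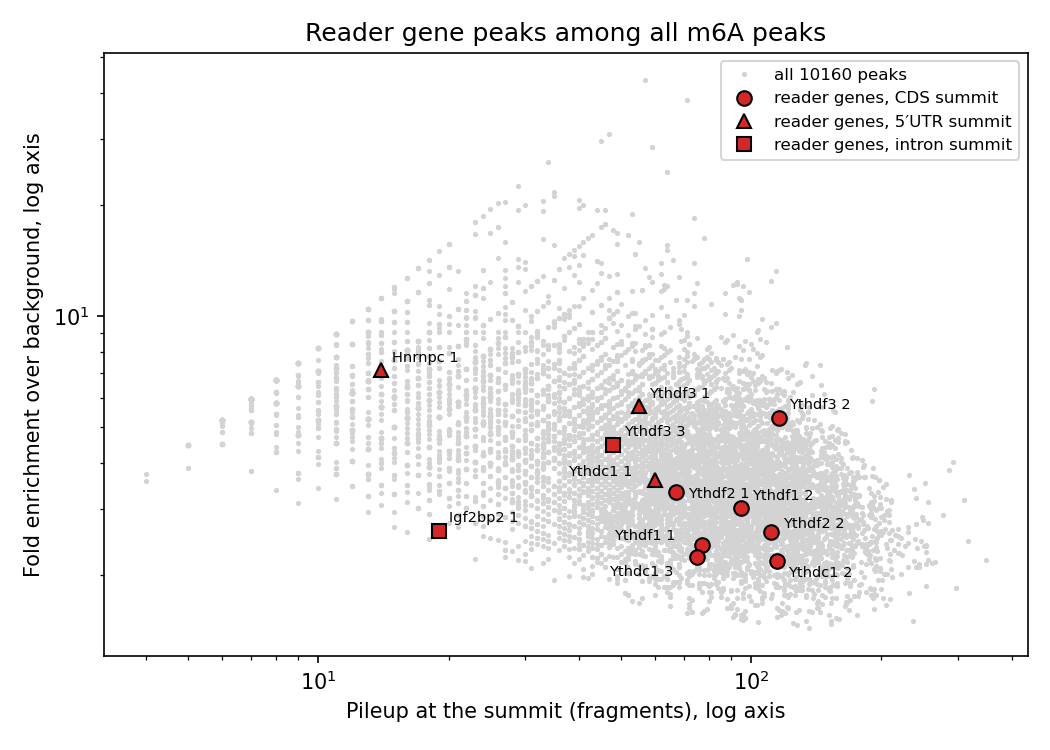
Grey points are all 10160 peaks by pileup at the summit and fold enrichment over background, both on log axes, and red symbols the 12 reader gene peaks by summit place. Reader peaks lie within the cloud, Ythdf3 peak 2 toward its upper right and Igf2bp2 peak 1 at its lower left edge.

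The absence of a listed peak on Hnrnpa2b1, Ythdc2, Igf2bp1 and Igf2bp3 did not go with an absence of the letters. Their representative transcripts held 11, 10, 35 and 15 GGAC. Per kb these were 2.69, 1.59, 4.18 and 3.45, and readers with a peak ranged from 1.06 (Hnrnpc) to 4.60 (Ythdf2). Hnrnpc, which had a peak, held 3 in its transcript, the fewest, and Ythdf2 held 19. In the related lists a peak was found on 8 of 11 writers and erasers, 12 of 22 other hnRNP genes, 8 of 18 decay genes, 3 of 7 fetal growth genes, 5 of 12 other m6A-binding proteins, 1 of 7 nuclear partners and 1 of 15 translation factors, beside 40.3% of all genes.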

How the data were processed

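The authors deposited estimated counts and normalized values per gene for 4 RNA-seq libraries, positioned on mm10. The submitters' processing notes name HISAT2 2.0.4, TopHat, MACS2, mm9 and mm10, and the counting tool and its use of strand are not given in the sources used here. The deposited normalized values, headed FPKM, sum to 1000000 per library and were used as TPM. Some deposited counts are fractional and were rounded. Entries without a gene name (89 of 47732, 0.110% to 0.125% of counts) were left out. The authors deposited 1 peak list for the 2 immunoprecipitates and 2 inputs, in the layout of MACS2, with the pileup signal, the fold enrichment ratio and −log10 p and q values. How replicates were pooled is not given in the sources used here. Peak positions fitted mm9 gene models.

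Counts were tested with edgeR 4.0.16 in R 4.3.3 (filterByExpr, TMM, quasi-likelihood test, two-sided, Benjamini-Hochberg over 15327 genes, threshold 0.05), genotype being the only term. The code was tested on simulated data. TMM factors were 0.987 to 1.01. Standard errors were derived from the fold change and its F statistic. Alternatives were other size factors, no filter, DESeq2 1.42.0, limma 3.58.1 (on TPM with a pseudocount of 0.1, log2), a linear model that shares no information between genes (on TPM with a pseudocount of 1, log2), a replicate block, each library left out and the cKO libraries summed. Each peak was given to the gene holding its summit, with an exon at the summit preferred and then the gene with most counts. Paralogs were aligned with Biopython 1.88. The peak list has no replicates, so no test was run on it. The members and lists were chosen with earlier results of these data known. All 10 readers are named, with Mettl3 and, per related list, the 2 genes of highest mean TPM and up to 3 called genes of largest absolute log2 fold change. Virma, Cnot9, Rida and Rack1 were matched by older symbols. The sequence at the summit of 1 peak on Ythdf3 is not reported here.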

Additional observations from a re-analysis of the deposited data

How the results depend on the processing

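Hnrnpa2b1 was lower in cKO under every alternative run, with log2 fold changes from −0.56 to −0.36, but its adjusted p was 0.175 in the ordinary linear model and 0.0787 with the cKO libraries summed. The number of readers called was 2 with no filter, when Hnrnpc passed, 0 in the ordinary linear model (2 at an unadjusted p under 0.05), 0 with the cKO libraries summed (1 at an unadjusted p under 0.05 in edgeR's test) and 0 to 5 with 1 library left out. Genes called of all tested were 2852 with limma on TPM, 99 in the ordinary linear model, 2012 with the cKO libraries summed and 1867 to 8750 with 1 library left out. For the related lists these counts were 7, 1, 3 and 3 to 55. The direction turned for Igf2bp2 (0.054 with limma on TPM and 0.049 in the linear model) and for Igf2bp3 (0.34 and 0.21). Igf2bp1 was too low to be kept in these models on TPM. With 1 library left out the log2 fold change ranged from −0.0054 to 0.20 for Ythdc1, from −0.080 to 0.12 for Ythdc2 and from −0.26 to 0.25 for Igf2bp3. Limma on TPM moved the median of all genes from −0.004 to 0.098 and the share of calls that were higher from 44.9% to 56.8%. The causes were not tested. A lone library left in a group was assumed to vary like the other group. Same-numbered libraries did not deviate together (correlation 0.0264), so their numbers were not taken as pairs, and a fit with the replicate block called 4881 genes and 1 reader. No peak count moved by more than 1.5 times under the peak alternatives. With 2 libraries per genotype, and 19 to 35 counts for Igf2bp1, small differences could not be resolved.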
